A study of Mus musculus with 4 samples.

Results

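The POZ zinc finger (Zbtb) genes were taken as the protein-coding mouse genes of the GENCODE basic annotation whose symbol is Zbtb followed by a digit. Zbtb17, which encodes MIZ-1 itself, was left out. The rule gave 40 genes of 21951 protein-coding genes and used no measured value. One entry, Zbtb8os, shares the name and a neighbourhood with Zbtb8a, but its product is archease, a cofactor of an RNA ligase, and has neither a POZ domain nor zinc fingers. Leaving it out gave 19 (MIZ-1WT) and 27 (MIZ-1DPOZ) members with promoter peaks, against 19 and 28 with it.

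Binding of MIZ-1 was measured by chromatin immunoprecipitation followed by sequencing (ChIP-seq) in B220+ cells from the spleens of young adult mice on a C57BL/6 background, with antibody H-190. MIZ-1WT cells carried wild-type Miz-1, and MIZ-1DPOZ cells came from MB1-cre X Miz-1floxedPOZ mice, in which Cre driven from the Cd79a locus deletes the POZ domain in B lineage cells and leaves the zinc fingers. Per genotype, the labels give 1 ChIP and 1 input library, and they do not say how many mice were pooled, so each comparison is between 1 library and 1 library and has no replicate. B220 also marks some cells outside the B lineage, and peak lists hold no expression values with which the sorted cells could be checked.

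There were 34209 deposited peaks for MIZ-1WT and 78357 for MIZ-1DPOZ. The MIZ-1DPOZ ChIP library was 1.34 times deeper by the background level in its peak scores, and what part depth has in the longer list was not tested. The main counts below therefore stand beside the same share over all protein-coding genes in the same list.

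Proteins of this family carry an N-terminal POZ (BTB) domain, through which they pair with themselves and with one another and recruit corepressors, and C-terminal zinc fingers, which contact DNA. Several are regulators of lymphocyte fate, and BCL6, ZBTB4 and ZBTB49 have been described as partners of MIZ-1. The genes of the family are thus relatives of the factor that was precipitated, and in some cases genes of its partners.

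The sequences under the summits of 6 promoter peaks are shown because these peaks held a searched motif, were found in a single list or were among the strongest. Each is 151 bases centred on the summit, read 5′ to 3′ from the plus strand of GRCm38 (mm10). Capitals mark the E-box CACGTG, which MYC with MAX binds, the CCAAT box, or CGGTAAT, the core of a described MIZ-1 site, on either strand.
Zbtb41, MIZ-1WT summit, chr1:139422301-139422451: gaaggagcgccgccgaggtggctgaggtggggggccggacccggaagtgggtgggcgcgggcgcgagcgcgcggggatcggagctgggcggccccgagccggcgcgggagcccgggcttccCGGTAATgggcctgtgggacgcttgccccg
Zbtb1 and Zbtb25, MIZ-1WT summit, chr12:76369545-76369695: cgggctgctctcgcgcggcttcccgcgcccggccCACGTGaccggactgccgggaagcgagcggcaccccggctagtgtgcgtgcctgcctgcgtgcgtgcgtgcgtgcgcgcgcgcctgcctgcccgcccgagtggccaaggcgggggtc
Zbtb5, MIZ-1DPOZ summit, chr4:45012025-45012175: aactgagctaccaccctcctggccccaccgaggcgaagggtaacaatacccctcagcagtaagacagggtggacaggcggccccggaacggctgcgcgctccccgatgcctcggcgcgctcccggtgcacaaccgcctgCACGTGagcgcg
Zbtb6 and Zbtb26, MIZ-1WT summit, chr2:37443021-37443171: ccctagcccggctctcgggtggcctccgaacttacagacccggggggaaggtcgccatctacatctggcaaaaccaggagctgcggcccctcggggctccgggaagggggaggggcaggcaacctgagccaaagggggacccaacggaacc
Zbtb46, MIZ-1DPOZ summit, chr2:181459022-181459172: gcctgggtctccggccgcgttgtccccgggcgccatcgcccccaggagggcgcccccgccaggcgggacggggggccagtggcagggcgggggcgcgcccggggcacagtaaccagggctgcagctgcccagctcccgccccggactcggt
Zbtb8b, MIZ-1DPOZ summit, chr4:129440505-129440655: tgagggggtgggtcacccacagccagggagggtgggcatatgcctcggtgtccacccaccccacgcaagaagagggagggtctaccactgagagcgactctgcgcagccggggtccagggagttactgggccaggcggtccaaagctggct
The Zbtb41, Zbtb1 and Zbtb25, and Zbtb5 sequences each held 1 match. The windows of Zbtb6 and Zbtb26, Zbtb46 and Zbtb8b held none of the 3 motifs and are printed in lower case throughout. G and C made up 79.5% of the Zbtb41 sequence, 78.8% of that of Zbtb1 and Zbtb25, 80.8% of that of Zbtb46, and 66.2% of that of Zbtb8b.

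A promoter peak was a peak overlapping the window from 2000 bp before to 1000 bp after a transcript start of the gene. MIZ-1WT peaks lay at the promoters of 19 of 40 members (47.5%, 95% Wilson interval 32.9 to 62.5), where 30.9% of all protein-coding genes had one. MIZ-1DPOZ peaks lay at 28 members (70.0%, 54.6 to 81.9), against 48.7% of all genes. A promoter peak was listed in both libraries for 17 members (42.5%, 28.5 to 57.8), against 26.6% of all genes. Zbtb6 and Zbtb26 had one for MIZ-1WT only (5.0%, 1.38 to 16.5, against 4.23% of all genes). For MIZ-1DPOZ only, 11 members had one (27.5%, 16.1 to 42.8, against 22.0%). The remaining 10 members had none in either list (25%, against 47.1% of all genes). In these counts, the intervals for MIZ-1WT, MIZ-1DPOZ and both lists lay above the share of all genes, and those for peaks in a single list held it. With each peak assigned to its nearest start site alone, the shares for MIZ-1DPOZ (57.5%, against 44.8%) and both lists (35.0%, against 23.6%) lay closer to those of all genes. The share for MIZ-1WT was then 45.0%, against 27.9%. No intervals were computed for that setting, so whether they would lie above the share of all genes was not determined. Intervals cover counting error only, and neighbouring members that share a peak are not independent of each other. Zbtb1 and Zbtb25 were counted by the same MIZ-1WT peaks, and Zbtb6 and Zbtb26 by a single one. The MIZ-1WT interval treats these genes as separate, and its lower end of 32.9% lay near the 30.9% of all genes. Whether it would lie above that share with each shared peak counted once was not tested.

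Promoters of the family were richer in G and C than most. Within 150 bp to each side of the most upstream start site, the median GC content was 70.1% for members and 58.8% for all protein-coding genes, and the median ratio of observed to expected CpG was 0.848 and 0.619. A promoter was called CpG-rich at a GC content of at least 55% and a CpG ratio of at least 0.6 around any start site. By this rule 33 members (82.5%) and 52.3% of all genes were CpG-rich. Set against CpG-rich genes, the members' shares lay near the background. MIZ-1WT peaks lay at 18 of the 33 CpG-rich members (54.5%, 38.0 to 70.2), against 50.5% of 11491 CpG-rich genes, and MIZ-1DPOZ peaks at 24 (72.7%, 55.8 to 84.9), against 72.0%. Both lists had a peak at 16 (48.5%, 32.5 to 64.8), against 44.5%. The MIZ-1WT list alone had one at 2 (6.06%, 1.68 to 19.6), against 6.02%, and the MIZ-1DPOZ list alone at 8 (24.2%, 12.8 to 41.0), against 27.5%. Each of these 5 intervals held the share of the CpG-rich genes. The 7 members without CpG-rich promoters were Zbtb7b, Zbtb8a, Zbtb8b, Zbtb18, Zbtb20, Zbtb32 and Zbtb38.

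**Figure D1:**
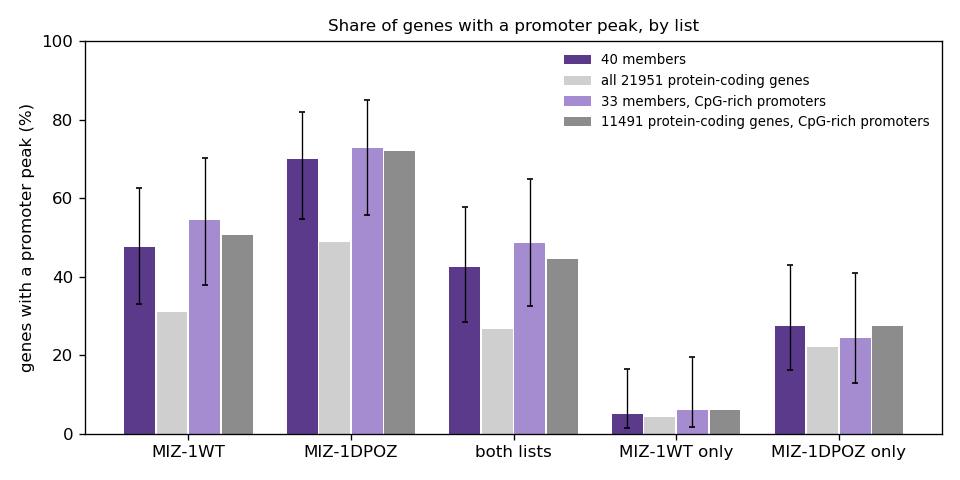
Bars give the share of genes (%) with a promoter peak in each list, in both or in a single list, for the 40 members, all 21951 protein-coding genes, the 33 members with CpG-rich promoters and the 11491 CpG-rich protein-coding genes. Error bars are 95% Wilson intervals and are drawn for the members only. The members' bars for MIZ-1WT, MIZ-1DPOZ and both lists stand above those of all genes (47.5% against 30.9% for MIZ-1WT), and the CpG-rich bars lie close together (54.5% and 50.5%).

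The counts depended on how strong a peak had to be. At a −log10 q of at least 5, MIZ-1WT promoter peaks lay at 7 members, against 9.77% of all genes, and MIZ-1DPOZ peaks at 20, against 33.3%. The 5 members with such peaks in both lists (12.5%, against 7.1% of all genes) were Zbtb1, Zbtb7c, Zbtb25, Zbtb37 and Zbtb46. Zbtb1 and Zbtb25 were counted by the same peaks. No intervals were computed at this threshold, so these shares are not shown to lie above those of all genes. When the MIZ-1DPOZ list was shortened to the number of MIZ-1WT peaks by −log10 q, 17 members kept a MIZ-1DPOZ peak (42.5%, against 25.3% of all genes). MIZ-1WT alone then had a peak at 8 members (20%, against 14.8%) and MIZ-1DPOZ alone at 6 (15%, against 9.27%), the reverse of the order in the full lists, and the order over all genes was reversed as well.

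The strongest MIZ-1WT promoter peak of the family lay between Zbtb25 and Zbtb1, neighbours on chromosome 12 that are transcribed away from each other. Zbtb1 is needed for lymphoid development, above all of T cells. The MIZ-1WT peak at chr12:76369190-76369726 had a fold enrichment of 6.89 over the local background and a −log10 q of 8.64. Its summit lay 18 bp before the Zbtb25 start and 646 bp before that of Zbtb1, and rested on 17 fragments. No MIZ-1DPOZ peak overlapped it, but that list had a peak at chr12:76370706-76371208, 824 bp after the Zbtb1 start, with a fold of 5.75, a −log10 q of 7.95 and 17 fragments as well. Between them lay an overlapping pair of weaker peaks, with 11 fragments for MIZ-1WT (chr12:76370052-76370203) and 13 for MIZ-1DPOZ (chr12:76370157-76370522). Both genes thus had peaks in both libraries, but the strongest summit of each library was on a different side of the Zbtb1 start. Both MIZ-1DPOZ summits lay nearer to the Zbtb1 start, at 785 and 1488 bp before that of Zbtb25. In a window of 500 bp, or with nearest starts alone, Zbtb25 had no MIZ-1DPOZ peak.

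Zbtb46, known for its expression in classical dendritic cells, had the tallest promoter peak of the family in either list. The MIZ-1DPOZ peak at chr2:181458738-181459688 was 951 bp wide and had 25 fragments at its summit, a fold of 8.05 and a −log10 q of 15.3. The MIZ-1WT list had 2 narrow peaks inside or at the edge of the same span, one of 12 fragments (chr2:181458727-181458920, fold 5.95) and one of 8 (chr2:181459467-181459626, fold 4.09). The MIZ-1WT summits lay 615 bp after and 71 bp before the Zbtb46 start, and the MIZ-1DPOZ summit 329 bp after it. The first MIZ-1WT summit and the MIZ-1DPOZ summit were 286 bp apart.

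Zbtb7c, a relative of Zbtb7a, had peaks at both of its start sites in both libraries. At the downstream start the MIZ-1WT peak had 12 fragments and a fold of 6.78, and the MIZ-1DPOZ peak 18 fragments and a fold of 6.66. The summits lay 39 bp apart, 163 and 124 bp after that start. At the upstream start the strongest MIZ-1WT peak had 11 fragments and a fold of 6.36, and the MIZ-1DPOZ peak 18 fragments and a fold of 6.18.

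Zbtb14 had an overlapping pair with summits 28 bp apart (11 and 17 fragments, folds of 5.53 and 5.40), 91 and 63 bp after a start in the MIZ-1WT and MIZ-1DPOZ lists. Zbtb37 had 1 promoter peak in each list, of 11 and 13 fragments (folds of 6.45 and 5.96), which did not overlap. Both Zbtb37 summits lay nearer to the start of Gas5, a noncoding RNA gene that hosts small nucleolar RNAs, at 20 bp for MIZ-1WT and 78 bp for MIZ-1DPOZ. The peaks of Zbtb37 therefore cannot be assigned to it apart from Gas5.

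Zbtb41 was the only member with CGGTAAT around its most upstream start site (2.5%, against 0.401% of all genes), and the motif was also within 150 bp of both of its summits. The MIZ-1WT summit had 8 fragments and a fold of 4.84, and the MIZ-1DPOZ summit, 16 bp away, had 15 fragments and a fold of 6.81. Both fell within 10 bp of a transcript start.

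The other members with promoter peaks in both lists and no role in the lists below were Zbtb8a, Zbtb34, Zbtb39, Zbtb43 and Zbtb44. Their strongest MIZ-1WT peaks held 7 to 10 fragments and their strongest MIZ-1DPOZ peaks 10 to 17. Zbtb39 was the highest of these, with 10 fragments for MIZ-1WT and 17 for MIZ-1DPOZ, at summits 6 bp apart. The MIZ-1WT summit of Zbtb44 lay nearer to the start of the noncoding gene Gm29724.

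**Figure D2:**
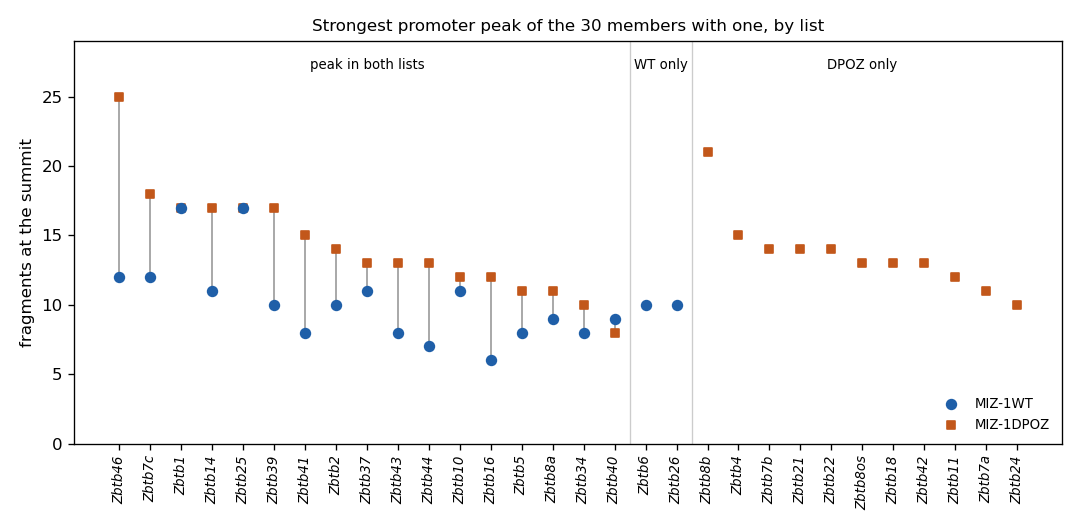
Each member with a promoter peak in either list is given on the horizontal axis, and the vertical axis gives the fragments at the summit of its strongest promoter peak by −log10 q. Circles are MIZ-1WT, squares are MIZ-1DPOZ, and a line joins both where a member had one in each list. Zbtb46 (25 fragments) and Zbtb8b (21) are highest in MIZ-1DPOZ, Zbtb1 and Zbtb25 (17, from the same peak) are highest in MIZ-1WT, and Zbtb40 is the only member with fewer fragments in MIZ-1DPOZ (8) than in MIZ-1WT (9).

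The MIZ-1WT-only members came from a single region. Zbtb6 and Zbtb26 are transcribed in the same direction from nearby starts, and 1 peak at chr2:37443002-37443242 lay over both, 75 bp after the Zbtb6 start and 24 bp after the Zbtb26 start. It had 10 fragments, a fold of 5.91 and a −log10 q of 5.05. No MIZ-1DPOZ peak lay in the promoter window of either gene. A CCAAT box was found within 150 bp of the summit, though not in the printed 151 bases.

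Among the 11 members with peaks in the MIZ-1DPOZ list alone, Zbtb8b had the strongest. Its peak at chr4:129440373-129440746 had 21 fragments, a fold of 9.36 and a −log10 q of 15.6, with its summit 238 bp after a start in an intron. Zbtb21 followed, with 14 fragments and a −log10 q of 7.89, and then Zbtb8os and Zbtb18, each with 13 fragments and a −log10 q of 6.90. The summit counted for Zbtb8os lay 356 bp from the start of Rbbp4, a histone chaperone gene, and 681 bp before its own. That of Zbtb18, a repressor known from neuronal development, lay 1594 bp before its nearest basic start and 569 bp from that of the noncoding gene Gm26801. Zbtb11, Zbtb22 and Zbtb42 had 12, 14 and 13 fragments, and the Zbtb11 summit lay nearer to the noncoding Zbtb11os1.

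Of 8 members known as regulators of immune cells, 3 had a MIZ-1WT promoter peak and 6 a MIZ-1DPOZ promoter peak, where 30.9% and 48.7% of all genes had one. Counts over the lists of 3 to 8 genes here and below have the same background and are too small to be read against it. Zbtb1 and Zbtb46, described above, were in both lists. Zbtb16 (PLZF), which directs innate-like T cells, was in both as well, with the weakest MIZ-1WT promoter peak of the family (6 fragments, −log10 q of 1.67) 678 bp after its start and a MIZ-1DPOZ peak of 12 fragments 19 bp before it. These peaks did not overlap. Zbtb7a (LRF), which favours B over T cell fate and acts in germinal centre cells, had a MIZ-1DPOZ peak of 11 fragments. Its fold of 2.88 was the lowest among the strongest peaks of members. The −log10 q of this peak was 1.87. Its summit lay 912 bp before the nearest basic Zbtb7a start, but inside the gene record, in an intron. At a −log10 q of at least 2, Zbtb7a had no promoter peak. Zbtb7b (ThPOK), the regulator of CD4 T cell fate, had 2 peaks in the MIZ-1DPOZ list, of 14 fragments each. Their folds were 3.74 and 3.91, and 1 of them lay nearer to Gm15417. Zbtb24, mutated in an immunodeficiency syndrome with centromere instability, had a MIZ-1DPOZ peak of 10 fragments.

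Zbtb32, which limits memory B cell responses, had no peak at its promoter or in its gene body in either list. Zbtb20, which supports long-lived plasma cells, had no peak in the window of a basic transcript start. Its gene record begins upstream of these starts, however, and an overlapping pair of peaks lay just inside that end. The MIZ-1WT summit was 356 bp after the beginning of the gene record, with 10 fragments and a fold of 5.91, and the MIZ-1DPOZ summit 367 bp after it, with 14 fragments and a fold of 6.39. The nearest transcript start to both summits was that of 4932412D23Rik, at 497 and 508 bp. The nearest basic start of Zbtb20 itself was 31415 and 31404 bp away. Counting the beginnings of gene records as well was an alternative chosen after seeing the data. It added Zbtb20 to both lists, for 20 MIZ-1WT and 29 MIZ-1DPOZ members (50.0% and 72.5%, against 31.4% and 49.3% of all genes).

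Of the 3 members that bind methylated CpG, none had a MIZ-1WT promoter peak, which 30.9% of all genes had. Zbtb4 had 3 in the MIZ-1DPOZ list, of 12 to 15 fragments, 1 of them in a coding exon beside a downstream start. Zbtb33 (Kaiso) had no peak at all, and Zbtb38 had peaks in its gene body only. No test was run on this count.

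Zbtb2 and Zbtb5, described as repressors of Cdkn1a or of the p53 pathway, had promoter peaks in both lists, and Zbtb49, which acts on Cdkn1a together with MIZ-1, had none in either. Zbtb2 had 1 MIZ-1WT peak of 10 fragments and 2 MIZ-1DPOZ peaks of 14 and 13. The overlapping pair had summits 849 bp apart, the largest distance among members. Zbtb5 had 8 and 11 fragments at summits 75 bp apart, and the E-box printed above lay within 150 bp of both.

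Of the 3 members associated with telomeres, Zbtb10 and Zbtb40 had promoter peaks in both lists and Zbtb48 (TZAP) in neither. Zbtb10 had 1 MIZ-1WT peak of 11 fragments and 3 MIZ-1DPOZ peaks of 10 to 12. Zbtb40 had 9 fragments for MIZ-1WT and 8 for MIZ-1DPOZ, at summits 89 bp apart.

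The other members without a promoter peak were Zbtb3, Zbtb9, Zbtb12 and Zbtb45. Of the 10 without one, Zbtb3, Zbtb12, Zbtb32, Zbtb33 and Zbtb48 had no gene body peak either, and Zbtb9, Zbtb20, Zbtb38, Zbtb45 and Zbtb49 had at least 1. An absent peak says that none passed the deposited threshold at this depth, not that MIZ-1 was absent.

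The members had 23 distinct MIZ-1WT promoter peaks and 37 distinct MIZ-1DPOZ ones. Summits lay a median of 179 bp from a start of the member for MIZ-1WT and 245 bp for MIZ-1DPOZ, and 20 and 28 of them within 500 bp. In the MIZ-1WT list 11 summits were intronic, 7 upstream of the gene and 5 in a UTR. In the MIZ-1DPOZ list 16 were intronic, 10 in a UTR, 8 upstream and 3 in a coding exon. Another gene's start was nearest for 2 MIZ-1WT and 5 MIZ-1DPOZ peaks, all named above. None of the summits lay in mostly repeat-masked sequence, and all 23 MIZ-1WT and 35 of 37 MIZ-1DPOZ summits were in sequence that occurs once in the genome, the exceptions being 2 at Zbtb10. Over all protein-coding genes, 3.8% and 4.5% of promoter peaks were mostly repeat-masked, and 96.0% and 94.5% were single-copy.

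**Figure D3:**
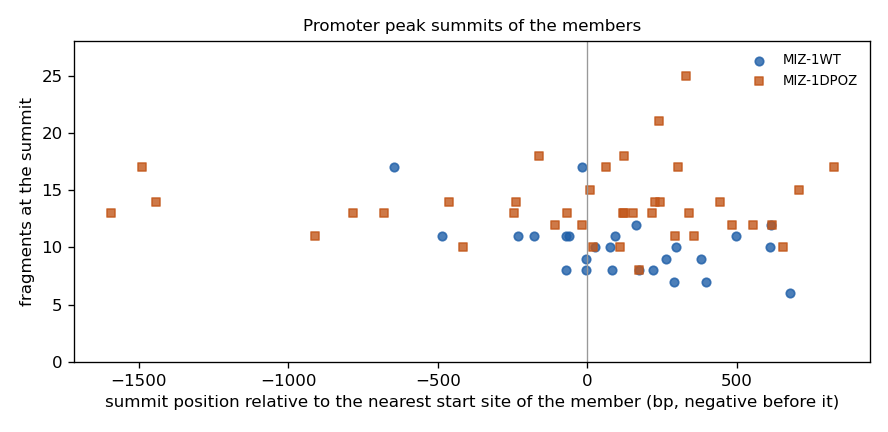
The horizontal axis gives the distance of each promoter peak summit from the nearest start site of its member (bp, negative before the start) and the vertical axis the fragments at the summit. Circles are MIZ-1WT and squares MIZ-1DPOZ, and a peak counted for 2 neighbours appears at its distance from each. Most summits lie within 500 bp of the start, and those farthest before a basic start, at Zbtb18, Zbtb25 and Zbtb7b, are MIZ-1DPOZ peaks. The Zbtb18 summit lies inside the gene record.

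The median promoter summit of the family held 10 fragments for MIZ-1WT (quartiles 8 and 11) and 13 for MIZ-1DPOZ (12 and 14), against 9 and 12 over all protein-coding genes. The family had none of the very tall peaks found elsewhere, its highest holding 17 and 25 fragments against 296 and 346 over all genes. GC content within 100 bp of the summits had a median of 76.1% and 75.1%, against 73.6% and 70.6%. Of the 23 MIZ-1WT promoter peaks, 18 overlapped a MIZ-1DPOZ peak (78.3%, against 73.3% over all genes), and of the 37 MIZ-1DPOZ promoter peaks 16 overlapped a MIZ-1WT peak (43.2%, against 41.2%).

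The E-box occurred within 150 bp of the most upstream start site of 6 members (15%, against 7.38% of all genes), namely Zbtb8os, Zbtb21, Zbtb24, Zbtb25, Zbtb40 and Zbtb49. Of these only Zbtb25 had it within 150 bp of a promoter summit. Around the summits it was found at 2 of 23 MIZ-1WT peaks (8.70%, against 6.62% over all genes), those of Zbtb25 with Zbtb1 and of Zbtb5, and at 2 of 37 MIZ-1DPOZ peaks (5.41%, against 5.67%), those of Zbtb2 and Zbtb5. The CCAAT box occurred at the start sites of 14 members (35.0%, against 36.3%), and at 2 MIZ-1WT and 3 MIZ-1DPOZ summits (8.70% and 8.11%, against 14.4% and 15.7%). These are matches of letters on either strand and do not show that a factor was bound. For the E-box, the CCAAT box and CGGTAAT, no share of CpG-rich genes and no interval was computed. The motif shares are therefore not matched for the CpG content in which members differed from all genes.

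Where the strongest MIZ-1WT promoter peak of a member overlapped a MIZ-1DPOZ peak, the fragments at the summits were compared after division by the depth ratio. Where more than 1 MIZ-1DPOZ peak overlapped, the one with most fragments was taken, which can only raise the ratio. There were 13 such pairs, from 13 members. MIZ-1DPOZ exceeded MIZ-1WT in 9 (ratio above 1) and fell short in 4, and the exact 95% binomial interval of each of the 13 held 1. It was highest at Zbtb46 (1.55, 0.752 to 3.39), followed by Zbtb41 (1.40, 0.557 to 3.81) and Zbtb44 (1.38, 0.514 to 4.10), and lowest at Zbtb40 (0.663, 0.223 to 1.94). Zbtb5 (1.03, 0.376 to 2.94) and Zbtb2 (1.04, 0.431 to 2.63) lay closest to 1. The paired summits of Zbtb2 were 849 bp apart and those of Zbtb46 286 bp, so these ratios do not compare the same position. The median log2 ratio was 0.16 (range −0.59 to 0.64), and over 4594 pairs of all protein-coding genes it was 0.06. With the most frequent background in place of the depth ratio, the members' median was −0.06, so its direction depended on the scaling. With these few fragments, differences within the intervals were not detectable, and the intervals compare 2 libraries, not 2 genotypes.

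**Figure D4:**
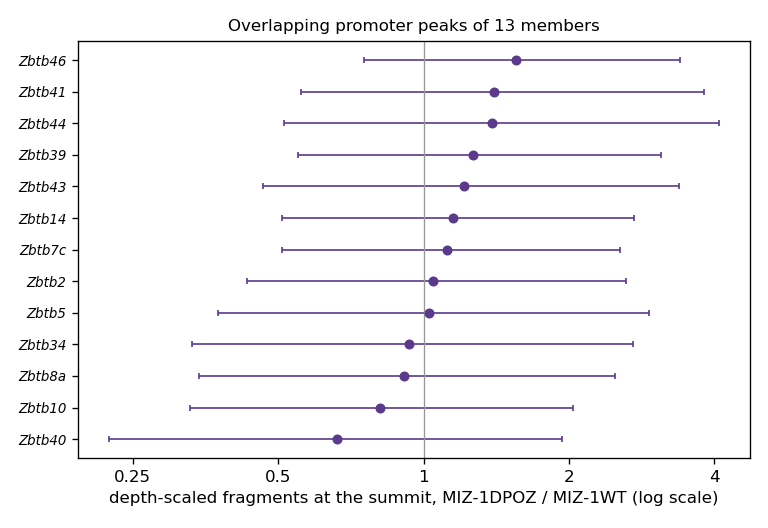
For the 13 members with overlapping promoter peaks, points give the depth-scaled ratio of summit fragments, MIZ-1DPOZ to MIZ-1WT, on a log axis, and bars the exact 95% binomial interval. All intervals cross the line at 1, from Zbtb40 (0.663) to Zbtb46 (1.55).

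Peaks within gene bodies but outside promoter windows numbered 16 for MIZ-1WT, in 8 members, and 47 for MIZ-1DPOZ, in 13 members. Of all protein-coding genes, 24.2% had such a MIZ-1WT peak and 42.7% a MIZ-1DPOZ peak. Per Mb of gene body, members held 7.54 and 22.1 peaks, against 9.65 and 24.8 over all genes, where a peak counted for each gene that held it. Zbtb20, which spans 767 kb, had 7 and 13, Zbtb7c 3 and 13, and Zbtb16 0 and 5.

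Many of the Zbtb20 peaks lay in repeats. Its tallest, at chr16:42984688-42985696 in the MIZ-1DPOZ list, had 41 fragments, and the sequence around its summit occurred 2520 times in the genome (median over 5 stretches of 50 bases). The overlapping MIZ-1WT peak had 16 fragments and 547 copies. The reads of such peaks cannot be placed at 1 copy with certainty. In single-copy sequence, a MIZ-1DPOZ peak of 19 fragments and a fold of 8.52 lay in a UTR near the end of Zbtb20. Over all members, 9 of 16 MIZ-1WT gene body peaks (56.3%) and 15 of 47 MIZ-1DPOZ gene body peaks (31.9%) were mostly repeat-masked, against 60.6% and 46.6% over all genes. Single-copy summits made up 10 and 39 of them (62.5% and 83.0%, against 55.1% and 66.6%).

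Of the Zbtb7c gene body peaks, the only overlapping pair lay in a coding exon, with 8 MIZ-1WT and 16 MIZ-1DPOZ fragments. The tallest Zbtb7c gene body peaks, of 23 and 19 MIZ-1DPOZ fragments, lay in repeat-masked sequence with 23 and 22 copies in the genome. The 5 gene body peaks of Zbtb16, all MIZ-1DPOZ, held 10 to 13 fragments in single-copy sequence, 3 of them in introns. Zbtb9 had a MIZ-1DPOZ peak of 25 fragments and a fold of 9.65 in an intron (chr17:26996905-26997269), over a MIZ-1WT peak of 8 fragments, in sequence with 3 copies in the genome. Zbtb45 had an overlapping pair in its coding exon, of 10 and 13 fragments. Coding exons held 3 of 16 MIZ-1WT gene body peaks (18.8%) and 10 of 47 MIZ-1DPOZ gene body peaks (21.3%), against 9.76% and 14.8% over all genes. For these shares of all genes, a peak counted for each gene that held it, while the repeat, copy and overlap shares count distinct peaks. Coding exons made up 3.63% of the members' span and 3.36% of that of all genes. A MIZ-1DPOZ peak overlapped 8 of the 16 MIZ-1WT gene body peaks, and a MIZ-1WT peak overlapped 8 of the 47 MIZ-1DPOZ ones (50% and 17%, against 47.2% and 17.6% over all genes).

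**Figure D5:**
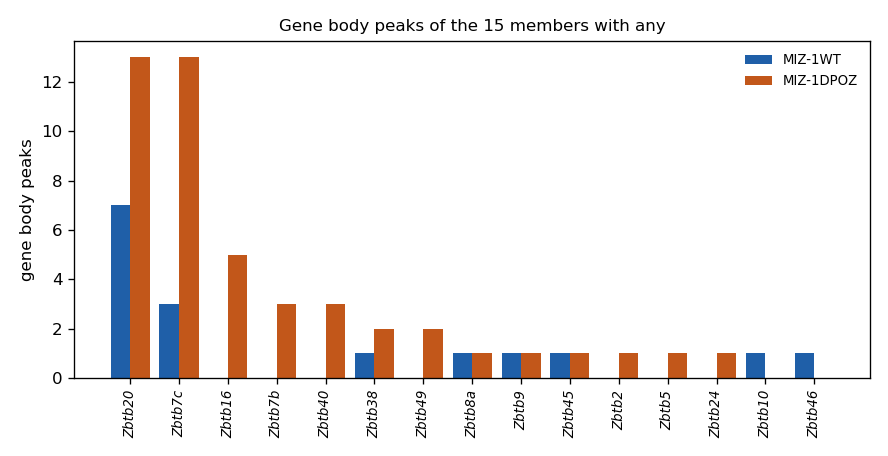
Bars give the number of gene body peaks, outside promoter windows, for the 15 members with any, in the MIZ-1WT and the MIZ-1DPOZ list. Zbtb20 (7 and 13) and Zbtb7c (3 and 13) hold most of them, and Zbtb10 and Zbtb46 are the members with more in MIZ-1WT (1 against 0 each).

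POZ zinc finger genes that go under other symbols were set beside the family. Of 8, 5 had a MIZ-1WT promoter peak, 5 a MIZ-1DPOZ promoter peak and 4 both, where 30.9%, 48.7% and 26.6% of all genes did. Bcl6, the repressor that defines germinal centre B cells, had an overlapping pair of 9 and 15 fragments with summits 15 bp apart, at a depth-scaled ratio of 1.24 (0.510 to 3.22). Both of these summits lay nearer to the start of Gm37419 (452 and 467 bp) than to that of Bcl6 (822 and 837 bp). Hic2 had 10 and 17 fragments, Patz1 9 and 14, and Zfp131 10 and 13 in peaks that did not overlap. Mynn had one for MIZ-1WT only (9 fragments), Gzf1 for MIZ-1DPOZ only (13), and Bcl6b and Hic1 had none. Zbtb17 itself had an overlapping pair with 9 and 17 fragments, folds of 5.38 and 7.67 and summits 10 bp apart, at a ratio of 1.41 (0.594 to 3.59).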

How the data were processed

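MIZ-1 ChIP-seq peak lists of 1 MIZ-1WT and 1 MIZ-1DPOZ library were used as deposited. Per the study's methods, the authors trimmed the paired-end reads with Trimmomatic, aligned them with bwa to mm10 and called peaks with MACS2. The deposited files are in MACS2's narrow peak format, 1 per genotype. Whether the input library served as the control is not given in the sources used here. The folds and q-values therefore cannot be taken as corrected for input. The submitters' processing notes name Bowtie2 2.2.6 and MACS2 2.1.0 instead of bwa, and which aligner made the lists was not settled. The q cutoff, and how duplicate or multi-mapping reads were handled, is not given in the sources used here. Read files and input libraries were not analysed here, so read totals are unknown.

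For each peak the authors deposited an integer display score, the fold enrichment (a ratio over the local background), the −log10 of the p-value and of the q-value, and the summit position. The display score repeats the −log10 q-value and was not used further. Fragments at the summit and the local background were solved from the deposited fold and −log10 p-value by MACS2's formulas, which was tested on simulated data. The depth ratio of 1.34 is that of the most frequent background values (0.860 and 1.35) divided by the smallest peak widths (148 and 173 bp). The labels give no replicates, so no test across genes was run.

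Peaks were set against GENCODE vM21 basic start sites on GRCm38, by at least 1 bp of overlap, with 1-based coordinates. Promoter composition and motifs were read within 150 bp of start sites or summits. Copies are the median genome count, on both strands, of 5 sequences of 50 bases around a summit. Repeat peaks had over 50% soft-masked bases within 100 bp of it. Intervals are Wilson or exact binomial at 95% and cover counting error only. All members were accounted for. Values are given in most detail for the 6 members with the largest smaller −log10 q in both lists. Detail is also given for the 3 with the largest in a single list and the 3 with most gene body peaks. For other members of the role lists, often only the fragments are given. Members and lists were chosen with earlier results of these data known. Alternatives were other score, promoter, repeat, copy number, list length and scaling choices. Computations used scipy 1.17.1, pandas 2.3.3, numpy 2.4.6 and numba 0.67.0 under Python 3.11.15, with plots from matplotlib 3.10.9.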

Additional observations from a re-analysis of the deposited data

How the results depend on the processing

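No paired analysis was possible because the labels give 1 ChIP library per genotype. Leaving out a replicate could not be tried for the same reason. At a −log10 q of at least 5, members with a promoter peak numbered 7 for MIZ-1WT (17.5%, against 9.77% of all genes) and 5 for both lists (12.5%, against 7.1%). Gene body peaks then numbered 2 for MIZ-1WT and 30 for MIZ-1DPOZ. At a fold of at least 5, the promoter counts were 12 for MIZ-1WT, 8 for both and 4 for MIZ-1WT only. With equal numbers of peaks in both lists, they were 17 for MIZ-1DPOZ, 11 for both, 8 for MIZ-1WT only and 6 for MIZ-1DPOZ only, with 16 gene body peaks for MIZ-1DPOZ. With each peak assigned to its nearest start site alone, 4 members were MIZ-1WT only (10.0%, against 4.3% of all genes). MIZ-1WT gene body peaks numbered 10 with single-copy summits and 7 with at most 50% repeat-masked bases. Intervals were not computed for any of these settings. Apart from the nearest-start setting, these settings keep fewer peaks by construction, and no other cause was tested. The nearest-start setting instead gives peaks to other genes, by which Zbtb25 and Zbtb37 lost their MIZ-1DPOZ peaks. The promoter and gene body counts stayed within 1.5 times their values under the other settings tried. The median log2 ratio of summit fragments ranged from −0.06 with background scaling to 0.20 with summits within 100 bp. Summits of 6 to 25 fragments limit what a missing peak can show.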
